A study of Mus musculus with 2 samples.

Results

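Small nucleolar RNAs (snoRNAs) and small Cajal body RNAs (scaRNAs) were counted in nuclear RNA of mouse bone-marrow-derived macrophages. The 45 genes described here were chosen by their measured values. Each has a transcript annotated as snoRNA or scaRNA and a mean expected count of at least 10 over the deposited gene tables. They are 45 of 1558 such genes in the annotation, 38 of 1507 snoRNA genes and 7 of 51 scaRNA genes, among 55536 genes in all. Because the counts chose them, their levels and the ratios between libraries below are a description and carry no test.

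The series held a single group of 2 biological replicates. The macrophages came from strain C57BL/6J, were given Lipid A at 100 ng/ml for 12 h, kept without it for 12 h, and given Lipid A at 100 ng/ml once more for 10 min. Lipid A is the lipopolysaccharide anchor that the receptor TLR4 recognises. RNA was taken from the nucleoplasmic fraction and depleted of ribosomal RNA, from a starting quantity of 500 ng in replicate 2 and 1 µg in replicate 1, with a labelled size range of 250 to 400, whose unit was not given. Age and sex were not recorded. Both replicates carry the same donor identifier and different biosample identifiers, and nothing states that they came from separate cultures or animals, so their spread may be technical. No untreated, singly treated or other fraction was analysed here.

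Replicate 2 held 18051097 expected counts over all genes and replicate 1 held 24444219. All 7 macrophage markers examined were detected (summed TPM of 2409 in replicate 2 and 2554 in replicate 1), and none of 10 markers of other lineages was (0.51 and 0.95). Of the 45 genes, most of those under 250 bases stood much lower in replicate 2 than in replicate 1 in the gene tables. Each library is therefore given by itself throughout. Short genes outside the 45 are not covered by that statement. Ratios are given as log2, with normalised counts of replicate 2 divided by those of replicate 1. Their 95% intervals (exact, Clopper-Pearson) cover counting error only, and reads without molecular identifiers are not independent molecules.

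Box C/D snoRNAs carry fibrillarin and guide 2′-O-methylation, and box H/ACA snoRNAs carry dyskerin and guide pseudouridylation, mainly of ribosomal RNA. The scaRNAs use the same box motifs, reside in Cajal bodies and guide modification of spliceosomal small nuclear RNAs. A few snoRNAs, among them U3, are needed for cleavage of the ribosomal RNA precursor and not for its modification. In mammals most of these RNAs are cut from introns of host genes and trimmed from both ends by exonucleases.

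The RNAs on which the results turn are shown in lower case, 5′ to 3′, as listed by GENCODE M21 on mm10. Capitals mark 3 short patterns, searched only on the RNA strand: TGATGA (the C box core) within the first 20 bases, CTGA (the D box) within the last 20 bases, and ACA exactly 3 bases before the 3′ end. The first pair are the ends of Gm22009, a 343-base scaRNA (chr3:69085105-69085447, minus strand) that held most of the counts. They are its bases 1 to 100 and 244 to 343.
Gm22009 5′ end: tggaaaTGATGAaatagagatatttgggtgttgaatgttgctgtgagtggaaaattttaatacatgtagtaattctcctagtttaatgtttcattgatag
Gm22009 3′ end: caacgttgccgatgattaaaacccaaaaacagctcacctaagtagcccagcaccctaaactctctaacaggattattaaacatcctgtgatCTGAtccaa

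Next are the H/ACA RNAs Snora73b (chr4:132352322-132352526, minus strand) and Snora73a (chr4:132352775-132352979, minus strand), with Gm26448 (chr9:120129351-120129553, plus strand). They are shown because they are close in sequence and stood lower in replicate 2 by similar ratios.
Snora73b: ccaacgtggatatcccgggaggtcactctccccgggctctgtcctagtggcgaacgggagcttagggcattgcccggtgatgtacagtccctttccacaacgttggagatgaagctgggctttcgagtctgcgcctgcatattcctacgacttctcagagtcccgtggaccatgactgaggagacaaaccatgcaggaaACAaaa
Snora73a: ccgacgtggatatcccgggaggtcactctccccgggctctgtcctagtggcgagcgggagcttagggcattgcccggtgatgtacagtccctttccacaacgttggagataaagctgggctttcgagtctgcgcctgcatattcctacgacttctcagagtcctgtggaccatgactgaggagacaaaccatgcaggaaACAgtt
Gm26448: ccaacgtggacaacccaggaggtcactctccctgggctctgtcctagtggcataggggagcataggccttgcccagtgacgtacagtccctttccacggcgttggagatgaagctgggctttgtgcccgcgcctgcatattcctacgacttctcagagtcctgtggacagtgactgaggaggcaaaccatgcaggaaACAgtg

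The U3 genes are shown because their entries overlap. Rnu3b1 (chr11:87443237-87443452, plus strand) stands for the 4 Rnu3b genes, which are identical in sequence, and Rnu3a lies at chr10:40258467-40258680 on the plus strand.
Rnu3b1: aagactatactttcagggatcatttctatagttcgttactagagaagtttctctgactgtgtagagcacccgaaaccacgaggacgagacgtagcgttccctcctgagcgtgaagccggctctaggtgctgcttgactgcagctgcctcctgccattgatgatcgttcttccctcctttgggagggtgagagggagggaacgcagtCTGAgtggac
Rnu3a: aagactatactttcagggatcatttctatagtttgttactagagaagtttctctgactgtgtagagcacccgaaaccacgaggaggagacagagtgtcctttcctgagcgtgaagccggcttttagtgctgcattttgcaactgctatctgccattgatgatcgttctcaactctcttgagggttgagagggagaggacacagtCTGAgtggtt

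Short RNAs follow. Gm22988 (chr11:69669635-69669778, minus strand) and Gm25291 (chr11:51737779-51737922, minus strand) were the short members closest to equal in both libraries. The C/D RNAs Snord22 (chr19:8725866-8725991, plus strand) and Snord15a (chr7:99482785-99482932, minus strand) were several-fold lower in replicate 2.
Gm22988: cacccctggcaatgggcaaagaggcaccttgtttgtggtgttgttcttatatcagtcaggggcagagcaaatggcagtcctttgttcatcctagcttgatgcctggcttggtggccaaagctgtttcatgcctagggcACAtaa
Gm25291: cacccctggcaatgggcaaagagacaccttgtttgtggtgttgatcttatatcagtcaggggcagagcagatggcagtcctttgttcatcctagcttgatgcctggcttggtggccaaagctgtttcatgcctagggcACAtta
Snord22: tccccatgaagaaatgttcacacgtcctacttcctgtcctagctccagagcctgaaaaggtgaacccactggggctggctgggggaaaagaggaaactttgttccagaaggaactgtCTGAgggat
Snord15a: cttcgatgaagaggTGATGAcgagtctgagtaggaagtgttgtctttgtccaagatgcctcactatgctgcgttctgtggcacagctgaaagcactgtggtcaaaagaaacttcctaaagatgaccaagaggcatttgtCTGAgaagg

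Last is Gm22442 (chr11:69350518-69350661, minus strand), a scaRNA exactly at the minimum in the gene tables and far above it in the other deposited quantification.
Gm22442: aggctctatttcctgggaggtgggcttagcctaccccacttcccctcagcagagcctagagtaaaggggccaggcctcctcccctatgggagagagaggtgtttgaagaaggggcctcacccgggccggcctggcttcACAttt

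All 14 members with a C/D name (Snord or U3 symbols) held CTGA in the last 20 bases, and 3 of them also held TGATGA in the first 20. Of the 14, 10 are U3 entries at 5 loci, close or identical in sequence and without TGATGA there. The 3 with TGATGA are Snord17, Snord15a and Snord15b. Of the 6 members with a Snora symbol, 5 ended in ACA and 3 further bases, Snora74a being the exception. Among the scaRNAs both C/D patterns stood in Gm22009, Gm25395 and Scarna6 and the ACA end in Scarna13, Gm26083 and Gm22442. Scarna2 had CTGA alone. Of the 18 members whose symbol gives no class, 4 held both C/D patterns and 9 the ACA end. Among all 45 members, with each U3 entry counted, 22.2% held both C/D patterns and 37.8% the ACA end. Of the 1513 annotated genes that are not members 20.1% and 18.8% did. The same windows of 67892 protein-coding and lincRNA transcripts held both C/D patterns in 0.0221% and the ACA end in 2.38%. A match is only a match of letters.

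Members were long for their class. They spanned 126 to 414 bases with a median of 196, while the annotated genes had a median of 128. The members' median is raised by U3, which counts as 10 entries at 5 loci. With U3 as 1 unit, 19 of 36 units were under 150 bases. None of the 462 annotated genes under 100 bases was a member (0%, exact 95% interval up to 0.795%), and 19 of 1031 genes of 100 to 149 bases were (1.84%, 1.11 to 2.86). The share was 4 of 26 at 150 to 199 bases (15.4%), 15 of 28 at 200 to 249 bases (53.6%), 4 of 6 at 250 to 299 bases and 3 of 5 at 300 bases or more. The 15 include all 10 U3 entries, so the share of 53.6% treats copies of the same RNA as separate genes. A second deposited table, made from reads without the transcriptome alignment and called the other quantification, put far more short genes at the minimum, 35 of 462 under 100 bases (7.58%) and 123 of 1031 at 100 to 149 bases (11.9%). Of the 699 genes shorter than the shortest member only 5 had any count, the highest being Gm24233 with a mean of 4. The labelled size range and the authors' effective lengths both go with length, and their part in these shares was not tested.

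**Figure D1:**
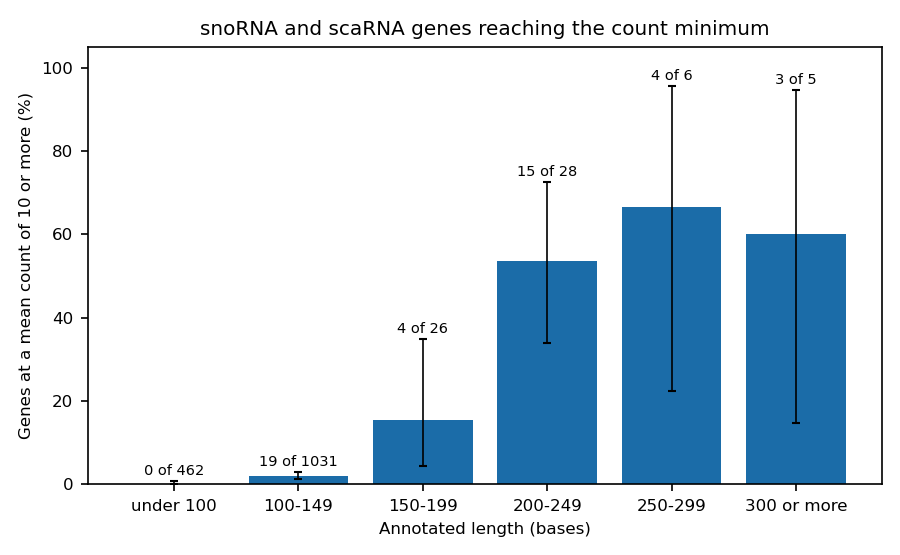
Percent of annotated snoRNA and scaRNA genes with a mean expected count of at least 10 (vertical axis) by annotated length in bases (horizontal axis). Bars give the share with its exact 95% binomial interval and are marked with the number of genes. In these gene tables no gene under 100 bases reached the minimum and 53.6% of those of 200 to 249 bases did. The latter include the 10 U3 entries at 5 loci, which the share and its interval treat as separate genes. In the other deposited quantification, not drawn, 7.58% of those under 100 bases reached the minimum.

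Many of the best-known snoRNAs fall in the short classes and had no count in the gene tables. U8 (Snord118, needed for the large-subunit rRNA), Snord13 and the Snord14 genes were listed at 0 in both libraries. So were the measured snoRNAs of the Rpl13a gene (Snord32a, Snord33, Snord34, Snord35a and its relative Snord35b), those of Gas5 (Snord47, Snord78 and both Snord80 entries) and the orphan snoRNAs Snord64, Snord107, Snord116l1 and Snord116l2. An expected count of 0 does not show absence here. Snord118, of 135 bases, had 9 estimated counts in replicate 2 and 17 in replicate 1 in the other quantification.

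Members held 40983 expected counts in replicate 2 and 50150 in replicate 1. That is 0.227% of all gene counts in replicate 2 (0.225 to 0.229) and 0.205% in replicate 1 (0.203 to 0.207), or 0.216% ± 0.0155 (SD, n = 2). The remaining 1513 annotated genes together held 37.8 counts in replicate 2 and 184 in replicate 1. The near-equal shares rested on Gm22009, which made up 73.5% of member counts in replicate 2 and 53.4% in replicate 1. Without Gm22009 the share was 0.0601% in replicate 2 and 0.0956% in replicate 1. By annotated class, scaRNAs held 86.0% of member counts in replicate 2 and 71.2% in replicate 1. C/D names held 1.62% in replicate 2 and 4.94% in replicate 1, H/ACA names 0.554% and 3.98%, and genes without a class 11.8% and 19.9%.

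**Figure D2:**
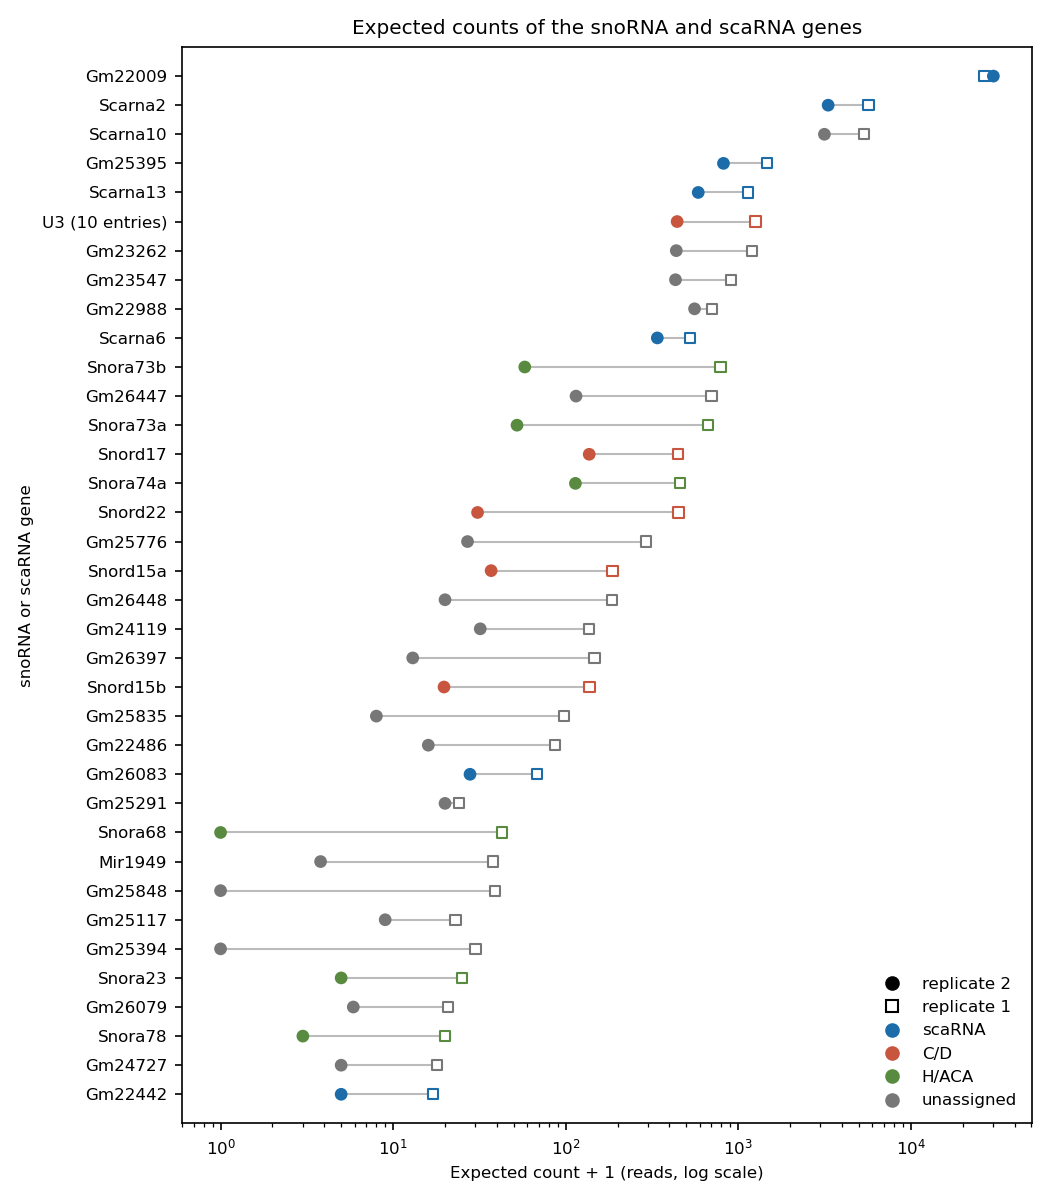
Expected counts plus 1 (horizontal log axis, reads) of the 36 snoRNA and scaRNA genes, the 10 U3 entries summed as 1, in order of mean count. Filled circles are replicate 2 and open squares replicate 1, and colours give the class by symbol or annotation. The longest RNAs at the top have their symbols close together, and most others have the replicate 2 circle far to the left of the replicate 1 square.

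The 7 scaRNAs held most of the counts and had a median ratio of −0.57, with 2 more than 2-fold lower in replicate 2, where 5.37% of all genes at the count minimum were. Gm22009, typed as a scaRNA, had 30143 counts in replicate 2 and 26780 in replicate 1, a log2 ratio of 0.45 (0.42 to 0.47). It was the only member whose interval lay above 0. Per kilobase of annotated length it reached 4031 ± 1184 CPM per kb (expected counts scaled to a total of 1000000; SD, n = 2). On this measure no other member came near it: Scarna10 followed at 606 ± 95 CPM per kb and Scarna2 at 504 ± 83.2. Within each library Scarna10 was the higher of this pair, by 1.21 times in replicate 2 and 1.20 times in replicate 1. The deposited TPM, which divides by effective length, ranked the members otherwise. Gm22988 stood above Gm22009 there, at 9047 against 8706 in replicate 2 and 5169 against 5144 in replicate 1. In replicate 1 Gm26447 (13699) and Snord22 (11315) also stood above Gm22009 on TPM.

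Scarna2, which in humans guides methylation of a spliceosomal snRNA, had 3323 counts in replicate 2 and 5691 in replicate 1 (log2 ratio −0.50, −0.56 to −0.44). It lies in no host gene (chr3:108554338-108554751, minus strand). Scarna10, whose human counterpart carries C/D and H/ACA domains in the same RNA, had 3161 counts in replicate 2 and 5348 in replicate 1 (−0.48, −0.55 to −0.42). The annotation types it as a snoRNA, so it counts among the genes without a class here.

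Scarna13, also called U93, had 586 counts in replicate 2 and 1145 in replicate 1 (−0.69). Gm25395 had 821 and 1473 (−0.57) and Scarna6 339 and 523 (−0.35, and 0.06 on TPM), replicate 2 first. These last lie in introns of the same gene, Atg16l1, a component of the autophagy conjugation machinery, and are identical at 67.6% of the longer RNA's positions. All 5 scaRNAs of at least 250 bases thus stood within 2-fold between libraries. The shorter scaRNAs were Gm26083 of 193 bases, with 26.9 counts in replicate 2 and 67.2 in replicate 1 (−1.03, −1.74 to −0.37), and Gm22442 of 144 bases, with 4 and 16 (−1.60, −3.76 to −0.09). Neither was past 2-fold in the other quantification (−0.66 for Gm26083 and −0.76 for Gm22442) or on TPM (−0.40 and −0.86), so that no scaRNA was more than 2-fold lower there.

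The count minimum passed through the scaRNAs as well. Just inside it were Gm22442 with a mean of 10 and, at 10.5, Snora78 and Gm24727. Just outside it were the scaRNA Gm23119, with 4 counts in replicate 2 and 15 in replicate 1, and the snoRNA Gm23442, with 0 and 13. Further genes of type scaRNA had a few counts below the minimum, Gm25492 with 0 in replicate 2 and 9 in replicate 1, Gm22767 with 0 and 5, Scarna3a with 1 and 3, and Scarna3b with 0 and 1. Gm24718 had 0.96 and 0, and the other measured scaRNA genes were listed at 0.

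U3, the C/D snoRNA that pairs with the ribosomal RNA precursor for its early cleavages, occupied 10 of the 45 entries at 5 loci. Each locus is listed with a pair of lengths that differ by 1 base, 215 and 216 bases for Rnu3b1 to Rnu3b4 and 213 and 214 bases for Rnu3a. Rnu3a and the 215-base Rnu3b1 were identical at 87.0% of positions. Reads cannot be divided among such copies: the SD of the count from read assignment ranged between 16.8 and 56.2 counts in replicate 2 and between 49.0 and 146 in replicate 1, on entries of at most 73.3 and 154 counts. The 214-base Rnu3a entry, for example, had 0 counts in replicate 2 and 152 in replicate 1, beside 58 and 76.4 in the 213-base entry.

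Summed over all entries U3 had 442 counts in replicate 2 and 1259 in replicate 1, a log2 ratio of −1.23 (−1.40 to −1.08), or 2.35-fold lower in replicate 2. The ratio was −1.48 in the other quantification and, under 2-fold, −0.67 on TPM. Its summed level was 177 ± 88.8 CPM per kb (SD, n = 2). With the entries summed there were 36 units, of which 27 were more than 2-fold lower in replicate 2 and 0 more than 2-fold higher. Of all genes at the same count minimum 5.37% were more than 2-fold lower and 3.07% more than 2-fold higher.

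The other members with a role in cleavage of the ribosomal precursor differed more. Snora73b had 57.0 counts in replicate 2 and 789 in replicate 1 (−3.51, −3.93 to −3.13), and Snora73a had 51.3 and 667 (−3.41, −3.88 to −3.02). These are the U17 RNAs, needed for the small-subunit rRNA, and they share 198 of 205 positions. As reads may be split between them, their sum is safer: 108 counts in replicate 2 and 1455 in replicate 1 (−3.47, −3.77 to −3.19), which is 11.1-fold lower in replicate 2. Both lie within Snhg3, a host gene for snoRNAs, which had 123 counts in replicate 2 and 119 in replicate 1 (0.32). The lincRNA Gm17300 is annotated on the opposite strand.

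Gm26448, 88.8% identical to Snora73a and within the ribosomal protein gene Rpsa on another chromosome, had 19 counts in replicate 2 and 184 in replicate 1 (−2.97, −3.77 to −2.32). Snord22, or U22, needed for small-subunit rRNA processing in Xenopus, had 29.9 counts in replicate 2 and 450 in replicate 1 (−3.62, −4.22 to −3.10). For none of these 4 RNAs did the interval of the ratio reach that of the summed U3.

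Among the C/D RNAs that guide methylation, Snord17, the longest at 238 bases, had 136 counts in replicate 2 and 447 in replicate 1 (−1.44, −1.73 to −1.16). Snord15a had 36 and 186 (−2.08), and Snord15b 18.7 and 137 (−2.56), replicate 2 first. Snord15a and Snord15b, which guide methylation of the large-subunit rRNA, lie in the ribosomal protein gene Rps3 and are identical at 72.3% of positions. Snord17 was not past 2-fold in the other quantification (−0.64) or on TPM (−0.96). With U3 summed the C/D names formed 5 units with a median ratio of −2.08, all 5 more than 2-fold lower in replicate 2, beside 5.37% of all genes. In the other quantification 4 of 5 were (median −1.48), and on TPM 2 of the 4 units with a value (median −1.11).

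All 6 H/ACA members were more than 2-fold lower in replicate 2 in the gene tables, beside 5.37% of all genes, with a median ratio of −3.05. Of them Snora23, Snora68 and Snora78 had under 10 counts in replicate 2. They passed the minimum through replicate 1 alone, which favours low ratios. In the other quantification 5 of 6 were, Snora23 being at −0.86, with a median of −2.38, and on TPM the 4 with a value were, with a median of −2.23. Beside the Snora73 pair, Snora74a had 113 counts in replicate 2 and 458 in replicate 1 (−1.74, −2.05 to −1.44). Snora23 had 4 and 24 (−2.17, −4.30 to −0.77). Snora68 had 0 counts in replicate 2 and 41.6 in replicate 1. At a floor of 3 counts for replicate 2, with the replicate 1 count taken as exact, that is at least 11.5-fold lower. The counting interval of its log2 ratio ended at −3.17, a smaller difference. Snora78 had 2 counts in replicate 2 and 19 in replicate 1 (−2.69), and it also lies opposite Rps2. An antisense gene is likewise annotated opposite Snora23, and without stated strandedness the reads of both are uncertain.

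The 18 genes without a class by symbol had a median ratio of −2.02, and 14 were more than 2-fold lower in replicate 2, beside 5.37% of all genes. The 14 include Gm25835, Gm25848, Gm25394, Gm25117, Gm26079, Gm24727 and Mir1949, all under 10 counts in replicate 2. Those passed the minimum through replicate 1 alone, which favours low ratios. The 16 with a count in replicate 2 ranged from −3.43 to 0.01. In the other quantification 10 of 18 were more than 2-fold lower (median −1.10), and on TPM 7 of the 15 with a value (median −0.95). Gm23262 had 437 counts in replicate 2 and 1200 in replicate 1 (−1.18), Gm23547, of 271 bases, 432 and 906 (−0.79), and Gm26447, of 129 bases, 114 and 700 (−2.34). Gm25776 had 26 and 291 (−3.19), Gm26397 12 and 146 (−3.28), Gm25835 7 and 97 (−3.43), and Gm24119 31 and 135 (−1.83), replicate 2 first in each. Gm22486 had 15 and 86 (−2.21) and Gm26079 4.88 and 19.9 (−1.64). Gm25848 and Gm25394 had 0 counts in replicate 2 and 38 and 29 in replicate 1. At the same floor, with replicate 1 taken as exact, they were at least 10.5-fold and 7.99-fold lower. Their counting intervals ended at log2 ratios of −3.02 and −2.61, smaller differences than these bounds. Those bounds hold for the gene tables only, as the other quantification gave 27 and 16 counts in replicate 2 and ratios of −1.56 for Gm25848 and −1.67 for Gm25394. Mir1949, which the annotation lists as a snoRNA gene overlapping a microRNA, had 2.80 counts in replicate 2 and 36.8 in replicate 1 (−3.22).

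Gm22988 departed from most other short members. It had 558 counts in replicate 2 and 701 in replicate 1, a ratio of −0.05 (−0.22 to 0.11), although it has 144 bases. With library totals alone its ratio was 0.11, and on TPM 0.81. Gm25291, identical to it at 97.2% of positions and located in another gene, had 19 and 23 (0.01, −0.96 to 0.94). The further relatives Gm24727 (93.8% identical) and Gm25117 (91.0%) had 4 and 17 (−1.68) and 8 and 22 (−1.13), both with few counts. Gm22988 lies wholly inside an annotated exon of Eif4a1, the gene of a translation initiation helicase, whose own ratio was −0.06. Gm25835, of the same length and within an intron of the same gene, had a ratio of −3.43 (−4.87 to −2.42) in the gene tables and of −0.44 in the other quantification, where Gm22988 was at −0.16.

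Across all members 43 ratios lay below 0 and 2 above, with a median of −1.83, which is the same with the 4 members at 0 counts in replicate 2 set at their bounds. The median over all 15431 genes at the same minimum was 0.00. Of the 45 members 31 (68.9%) were more than 2-fold lower in replicate 2, beside 5.37% of all genes at that minimum, and 0 were more than 2-fold higher, beside 3.07%. On the deposited TPM, which divides by effective length, 17 of the 38 members with a value in both libraries were more than 2-fold lower. The interval lay below 0 for 36 members, above 0 for 1 and held 0 for 8. These numbers take each U3 entry by itself, although reads cannot be divided among them. The interval of the summed U3 lay below 0 (−1.40 to −1.08). There is 1 library on each side, so these ratios have no replicate check. In RNA from many cells, fewer cells that contain an RNA and less of it per cell cannot be told apart.

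The minimum itself favoured such differences, since 12 members had under 10 counts in replicate 2 and none did in replicate 1. Among the 33 members with at least 10 counts in each library, 19 (57.6%) were more than 2-fold lower, with a median of −1.44, and 0 were higher. All genes with at least 10 counts in each library were more than 2-fold lower in 3.6% and higher in 2.22%. At a mean of at least 50 counts, 20 of 33 members (60.6%) were more than 2-fold lower and 0 higher, against 3% and 1.05% of all genes.

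Among the members the ratios in the gene tables went with length, in part through the minimum. The 12 members with under 10 counts in replicate 2 were all under 250 bases. They passed the minimum through replicate 1, which favours low ratios. The relation was not examined without them or in the other quantification. The 7 members of at least 250 bases ranged from −0.79 to 0.45, with a median of −0.50 and none more than 2-fold lower. The 19 members of 150 to 249 bases had a median of −1.83, with 14 more than 2-fold lower, and the 19 under 150 bases a median of −2.56, with 17. Of the 19 members of 150 to 249 bases 10 are U3 entries, among which reads cannot be divided. With U3 summed (−1.23) every unit of that length was more than 2-fold lower, so the numbers past 2-fold did not rise toward shorter RNAs below 250 bases. Over 36 units the ratio and the length correlated with a Spearman rho of 0.60 and a Pearson r of 0.54, as a description of genes that share the same libraries. The only other genes under 150 bases at the minimum, 2 in number, were both more than 2-fold lower, with a median of −2.03. Other genes of 150 to 249 bases, 33 in number, had a median ratio of −0.79 with 21.2% more than 2-fold lower, and the 142 other genes of 250 to 414 bases a median of −0.31 with 23.9%. The starting quantity and the effective lengths also differed between the libraries (median effective length of members 15.7 bases in replicate 2 and 20.6 in replicate 1), and their part in the ratios was not tested.

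**Figure D3:**
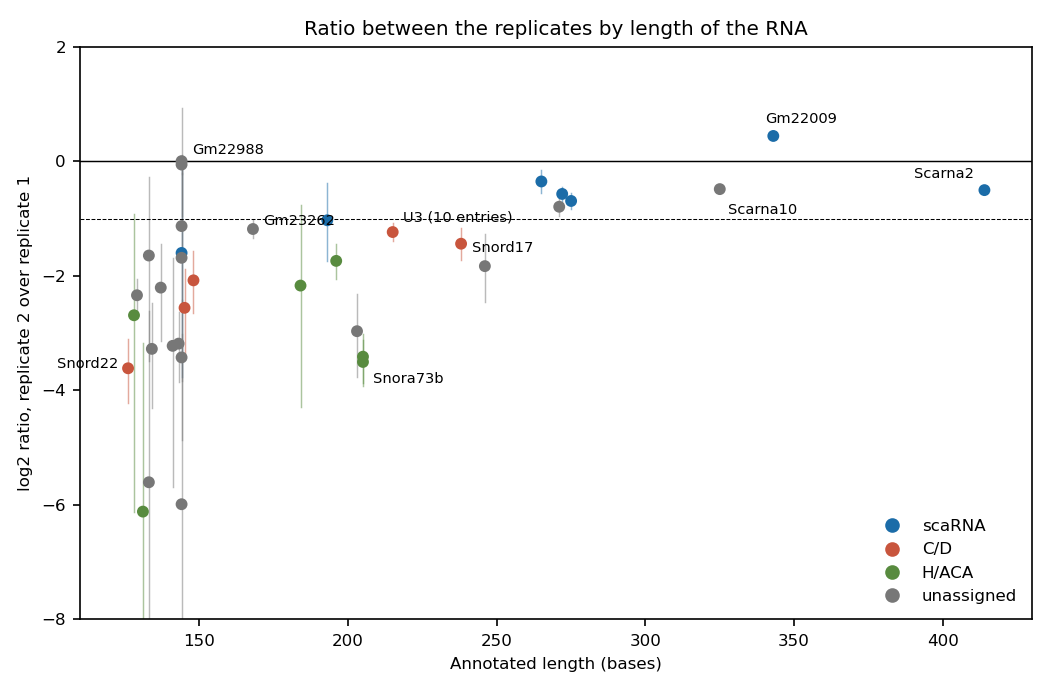
Log2 ratio of replicate 2 over replicate 1 in normalised counts (vertical axis), against annotated length in bases (horizontal axis) for 36 snoRNA and scaRNA genes with U3 summed. Points are coloured by class, vertical lines are 95% counting intervals cut off at the lower edge, and the dashed line marks a 2-fold lower level. All RNAs of at least 250 bases lie above the dashed line, and Gm22988 at 144 bases lies near 0.

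The deposited TPM of short RNAs rests on very small effective lengths. The authors' effective length, the number of positions at which a fragment can start, was 0 for 4 members in replicate 2 and for none in replicate 1. At 144 bases it was 2.22 bases in replicate 2 and 3.42 in replicate 1. Those 4 (Gm26447 with 114 counts, Snord22, Snora68 and Snora78) and 3 further members with 0 counts were listed at a TPM of 0 in replicate 2, against none in replicate 1. Members took 2.73% of all TPM in replicate 2 and 5.66% in replicate 1, against the 0.227% and 0.205% of counts given above.

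The host genes had ratios near 0. Leaving out U3, 34 members lay on the same strand within 29 host genes, 23 of them protein-coding. The ratios of the hosts had a median of 0.12 and ranged from −0.89 to 0.64, with 0 past 2-fold in either direction. In 31 of 34 cases the member's ratio was below that of its host, by a median of 2.08 on the log2 scale. Part of this gap was set by the minimum. Some of the 34 had under 10 counts in replicate 2 and passed it through replicate 1, while hosts were not chosen by their counts. The gap was not examined without those members, on TPM or in the other quantification. The lowest host, Snhg10, had only 10 counts in replicate 2 and 23 in replicate 1. In all, 20 members had no base in a host exon, 8 lay wholly in one and 6 in part, and for the last 2 kinds reads of the host may be counted with the member.

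Counts per annotated base over those of the host's exons set each RNA beside host RNA. They take no account of the small effective lengths of the short RNAs. In both libraries 15 of 34 members were denser than their host, 13 were in 1 library and 6 in neither. The median log2 density over the host was −0.33 in replicate 2 and 2.24 in replicate 1. Scarna10 stood furthest above its host Ncapd2, at 8.56 in replicate 2 and 9.45 in replicate 1. Of its bases 72.9% lie in an annotated exon of Ncapd2, and it overlaps Gm28967, a sense-intronic gene on the same strand. Both densities therefore depend on how reads were assigned among them. Gm22009 over Kpna4, an importin gene, was at 8.14 and 7.62, and Scarna13 over Snhg10 at 6.75 and 6.55. Snora73b over Snhg3 was at 1.17 in replicate 2 and 4.99 in replicate 1, and Snord22 over Snhg1 at 0.87 and 4.75. Gm25835 was below Eif4a1 in both, at −4.30 in replicate 2 and −0.93 in replicate 1. On TPM, which divides by effective length, Gm25835 was above Eif4a1, at 114 against 111 in replicate 2 and 715 against 102 in replicate 1.

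**Figure D4:**
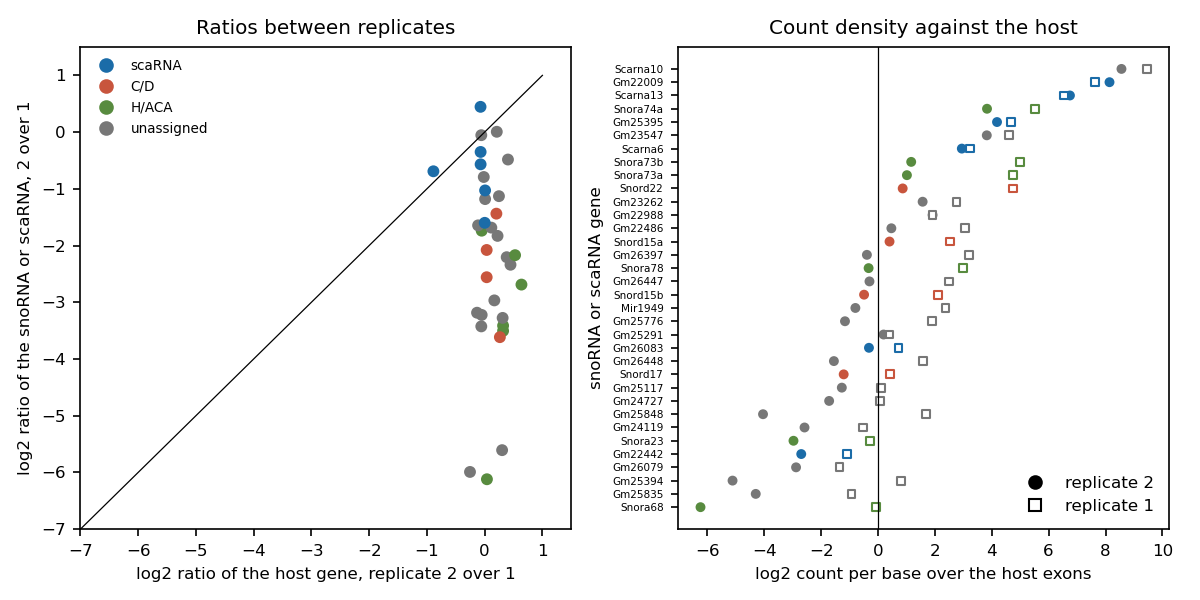
Left, log2 ratio of each snoRNA or scaRNA (vertical axis) against that of its host gene (horizontal axis), replicate 2 over replicate 1, with the line of equality. Right, log2 of counts per base over those of the host's exons, filled circles for replicate 2 and open squares for replicate 1. The 34 genes lie mostly below the line of equality, and Scarna10 and Gm22009 stand furthest above their hosts in both libraries.

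The other quantification, per the deposited file descriptions derived directly from reads and an index, assigned more reads to most members. It gave 55806 estimated counts to the members in replicate 2 and 55088 in replicate 1, and 38 of 45 were higher there in both libraries. It placed all U3 reads on 5 of the 10 entries, 910 counts in replicate 2 and 2406 in replicate 1. Snord17 had 506 and 744 estimated counts, against 136 and 447 in the gene tables, and a ratio of −0.64 against −1.44. The gap was widest for Gm22442, with 327 and 524 against 4 and 16, and wide for Gm25835, with 143 and 184 against 7 and 97, so that its ratio was −0.44 there and −3.43 here. Snora73b kept a ratio of −3.10 there and Snord22 of −3.50.

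At the same minimum 182 snoRNA or scaRNA genes passed in the other quantification. Of these 40 were members and 142 were not, and those 142 spanned 65 to 165 bases. Estimated counts of the 142 went either way between the libraries. Gm23772 had 149 in replicate 2 and 124 in replicate 1. Gm24336 had 335 and 530, against 4 and 7 in the gene tables. Whether the 142 stood lower in replicate 2 as a set was not tested. The number of members depended on the quantification, and which is nearer to the RNA content was not tested.

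The proteins that bind, build and trim these RNAs were expressed as messages in both libraries. Of 36 genes listed, 35 reached 1 TPM and 10 counts in each library and are called detected, and 0 differed by more than 2-fold, beside 2.59% of detected protein-coding genes. The C/D core (Fbl, Nop56, Nop58 and Snu13) had a median of 7.86 TPM and the H/ACA core (Dkc1, Nhp2, Nop10 and Gar1) 3.04 TPM, against 7.99 TPM over all detected protein-coding genes. The median ratios were 0.34 for the C/D core and −0.05 for the H/ACA core, and −0.01 over all detected protein-coding genes. The assembly factors had a median of 1.96 TPM (ratio 0.21), with Shq1, an H/ACA assembly factor, below the limit at 1.10 TPM in replicate 2 and 0.66 in replicate 1. Genes of Cajal bodies and RNA trafficking had 3.18 TPM (−0.14), led by Tgs1, which hypermethylates the caps of U3 and snRNAs, at 32.0 ± 0.62 TPM (SD, n = 2). Genes of 3′ trimming and decay had 9.91 TPM (0.18), among them Rbm7, part of the nuclear exosome targeting complex, at 23.0 ± 1.05 TPM and Zcchc7 at 21.1 ± 4.96 TPM.

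Terc, the telomerase RNA, carries an H/ACA domain and is annotated outside both types, so it is no member. It had 45 counts in replicate 2 and 81 in replicate 1 over 423 bases, a ratio of −0.57. Tert, the catalytic subunit, had 6 and 4 counts.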

How the data were processed

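Per the deposited file descriptions, the gene tables were derived from a transcriptome alignment to mm10 with GENCODE M21. For the quantifiers, aligner, versions and strandedness: not given in the sources used here. Per the file headers, the authors gave an expected count (estimated reads), a TPM, an effective length and the SD of the count from read assignment (unit of signal) for each gene. A second deposited table per library gives estimated counts from reads and an index and is called the other quantification.

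Members and lists were chosen with earlier results of these data known. Named genes are the 15 highest members, the 8 most lower and 8 most higher at a mean count of at least 50, those next to the minimum, and every measured gene of the lists for U3, precursor cleavage, orphan snoRNAs, telomerase, scaRNAs, Rpl13a and Gas5. A few others with low counts were named after their values were seen.

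Expected counts were rounded and scaled by TMM (edgeR 4.0.16; factors 1.06 in replicate 2 and 0.945 in replicate 1) over genes at a mean of at least 10, and 0.5 was added in ratios. With 1 group there was no contrast and no test. A host is the shortest same-strand gene that contains the RNA. Sequences came from GENCODE M21 transcripts. DESeq2 1.42.0 size factors, library totals, 5 added counts, TPM ratios, the other quantification, higher minimums and each library alone were tried as alternatives. Code was checked on simulated data.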

Additional observations from a re-analysis of the deposited data

Results flagged for a closer look

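In the other quantification, 113 snoRNA or scaRNA genes that had 0 counts in both gene tables reached a mean of at least 10 estimated counts, and 109 of them exceeded 3 in each library. The 3 highest, named after their values were seen, were Gm24339 (mean 329.5, 289 in replicate 2 and 370 in replicate 1, 76 bases), Gm23772 (mean 136.5, 149 and 124, 102 bases) and Gm22358 (mean 119, 90.1 and 147, 122 bases). They were singled out because they hold signal outside the counts reported above. The source of the difference between the quantifications was not tested. With 2 libraries in the only group, no library could be examined for standing apart from the others.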

How the results depend on the processing

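The number of genes at the minimum was 45 and became 182 in the other quantification and 110 with any count above 0, and it ranged from 33 to 47 with a single library. The share of gene counts, 0.216%, was 0.176% in the other quantification and ranged from 0.205% to 0.227% with a single library. Without Gm22009, chosen after the data were seen, it was 0.0778%. The median ratio of −1.83 became −0.91 on TPM, over 38 members, and stayed between −1.83 and −1.44 under the other alternatives tried. The 31 members more than 2-fold lower became 17 of 38 on TPM (3.35% of all genes), 20 at a mean of at least 50 and 19 at 10 counts in each library, where fewer members are counted, and 23 of 40 in the other quantification (3.83%). No alternative gave a member more than 2-fold higher. That covers the 45 members only and not the further genes that reached the minimum in the other quantification. Among those some were higher in replicate 2 and others lower. Examples, named after their values were seen, are Gm26265 with 80 estimated counts in replicate 2 and 32 in replicate 1, and Gm26202 with 12 and 44. Using library totals alone moved the median of all genes to 0.16 and TPM moved it to 0.24. Single ratios changed sign in 3 of 174 settings, Gm22988 with library totals (0.11) and TPM (0.81) and Scarna6 with TPM (0.06). Members denser than their host in both libraries numbered 15, against 24 in the other quantification and 23 over the host's whole span. No paired analysis was possible because both libraries belong to the same group. Depth limits the low members: a count of 0 allows up to 3 counts in that library.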
